A study of Mus musculus with 6 samples.

Results

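The genes described here encode the cornified envelope and the skin barrier, read in RNA from mouse dermis from which the epidermis had been taken off. They were chosen by name, as 46 gene symbols, and 45 of them were matched to a row of the deposited table of 23412 genes. Flg was not analysed here. Of the 45 genes, 36 averaged 1 FPKM or more across the 6 libraries and entered the test, and 9 lay below that level and are given as values only. FPKM scales the fragments of a gene to its length and to the sequencing depth, so levels of different genes can be set side by side.

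As keratinocytes move to the surface they fill an envelope under the cell membrane with proteins such as loricrin, involucrin, the small proline-rich proteins and the late cornified envelope proteins. Transglutaminases cross-link these into an insoluble shell, lipid enzymes coat it, and proteases later cut the corneodesmosomes that hold the dead cells together. The hair follicle cornifies too. Its inner root sheath hardens through trichohyalin and transglutaminase 3 and expresses several of the same genes as the epidermis, and follicles reach deep into the dermis.

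The 3 control mice were HoxB6CreERT/+; R26-YFP/+ and the 3 mutant mice HoxB6CreERT/+; R26-YFP/+; CatnbΔex3/+, all on a mixed CD1 and C57BL/6 background. CreERT is a Cre recombinase that acts once tamoxifen is present, here under HoxB6 control, and in the mutants it yields beta-catenin without its exon 3, which escapes degradation. Both groups had tamoxifen through the mother at embryonic day 16.5, both carried the Cre and the yellow fluorescent reporter, and all were 3 weeks old when ventral skin was collected. The skin was held in 0.25% trypsin and warmed for 45 minutes before the epidermis was removed. The source of the barrier transcripts that remained was not tested. In such bulk RNA, fewer cells of a type and less RNA per cell cannot be told apart.

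Reads assigned to genes, recovered from the steps of the FPKM values, numbered 7799565 to 9675359 in the controls and 11839144 to 13478910 in the mutants. Fibroblast markers were abundant (summed FPKM of 10 genes, 2702 to 10442 in controls and 9492 to 13609 in mutants), and so were epithelial markers. The 9 markers of inner root sheath and companion layer had summed FPKM of 5062, 5095 and 5023 in the control libraries (1, 2 and 3, the order used throughout) and of 5667, 2871 and 4834 in the mutant libraries. The 13 hair cortex and cuticle markers summed to 2189, 3119 and 3752 in controls and to 2919, 1052 and 2554 in mutants, and the 12 basal keratinocyte markers to 792, 603 and 653 in controls and 901, 728 and 782 in mutants. None of these markers was at 0 in all libraries. Mutant 2 thus stood apart with the lowest level of hair and sheath keratins. The sexes were unbalanced: controls 1 and 2 had Xist at 55.5 and 66.2 FPKM and almost no Y-linked RNA, while control 3 and the 3 mutants expressed Y-linked genes, mutant 2 with 6.47 FPKM of Xist besides.

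None of the 36 tested barrier genes differed between mutant and control dermis past the threshold (0 of 36, limma with Benjamini-Hochberg adjustment over all tested genes, adjusted p from 0.185 to 0.957). Over all 12560 tested genes 0.143% passed. At an unadjusted p under 0.05 there were 4 barrier genes, Calm4 and Klk8 with higher means in the mutants and Serpinb13 and Cnfn with lower ones, where all tested genes gave 10.5% higher and 0.748% lower. Limma-voom on the recovered reads also called 0. The log2 differences, mutant minus control, ran from -0.67 for Tgm3 to 0.79 for Lce1m, and 19 of 36 were below 0 (28.7% of all tested genes). Their median was -0.06, and that of all tested genes 0.09. Medians were 0.97 for the 10 fibroblast markers and 1.04 for 9 tested macrophage markers. In FPKM as deposited, every mutant was above every control for 8 of the 10 and 8 of the 9 (13% of all tested genes). The macrophage markers Ptprc and Fcer1g passed the threshold, and no fibroblast marker did. Single mice moved the differences of the barrier genes. Leaving out 1 mouse in turn moved 32 of the 36 by more than 1.5 times or changed their sign, all but Calm4, Klk8, Lce1c and Serpinb13. The sign changed for 13, among them Hrnr, Sprr1a, Tgm1, Cdsn, Spink5, Asprv1, Abca12, Calml3, Lgals7 and Sfn. A covariate for library sex, where control 3 is the sole control to set beside the mutants, moved 25 of 36 that far and changed the sign of 6. The 95% intervals were wide, with a median half-width of 0.48 on the log2 scale. For any 1 gene, 3 against 3 mice cannot reach an exact permutation p below 0.1.

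**Figure D1:**
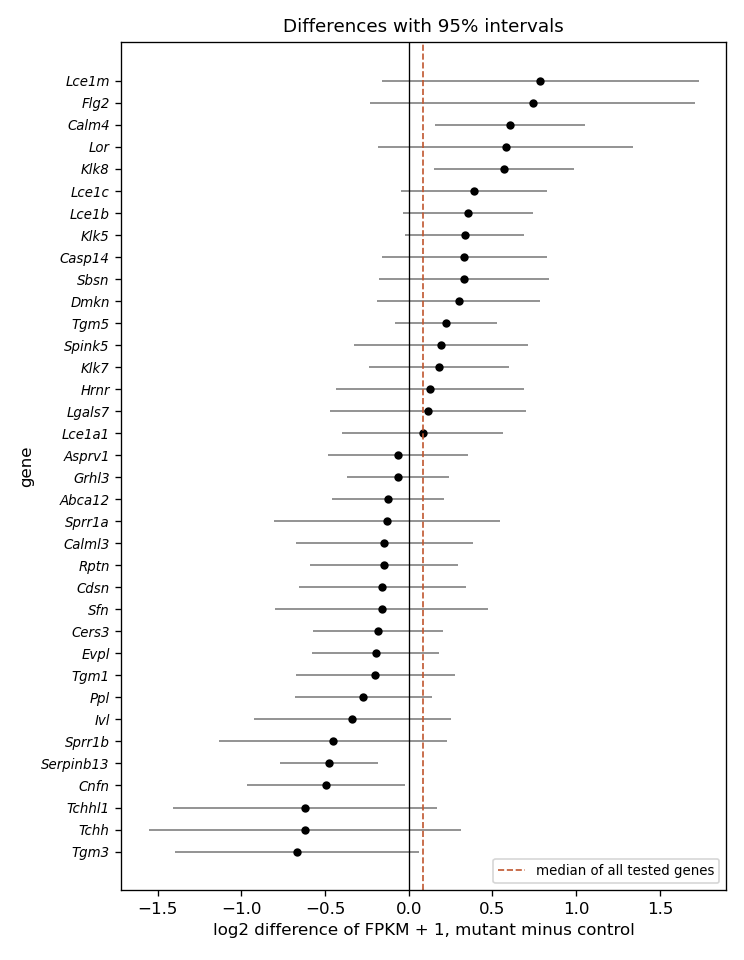
Log2 difference of FPKM + 1 between mutant and control dermis for the 36 tested barrier genes (points) with 95% intervals from limma (lines, n = 3 mice in each group). The intervals of all but 4 genes cross 0, and the dashed line marks the median of all tested genes at 0.09.

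What varied widely was the level from library to library, in opposite ways for different genes. Mutant 2 was the highest library for 11 of the 36 genes (30.6%, against 3.44% of all tested genes) and the lowest for another 17 (47.2%, against 35.2%). Control 3 was the lowest for 17 genes (47.2%, against 9.25%). Both extremes met in 10 genes: Lor, Flg2, Hrnr, Lce1b, Lce1c, Lce1m, Klk8, Spink5, Casp14 and Calm4 were each highest in mutant 2 and lowest in control 3, a pattern seen in 115 of the 12560 tested genes. Some of these orders were close. Spink5 was at 18.92 FPKM in mutant 2 and 18.85 in control 2, and Klk8 at 3.12 in mutant 2 and 2.99 in mutant 3. Lce1b and Lce1c rest on 5 to 28 reads a library. The 17 genes lowest in mutant 2 included Tchh, Tchhl1, Tgm3, Ivl, Cnfn, Sprr1a, Sprr1b and Tgm1. Most other genes had different extremes, which makes the shares of all tested genes highest in mutant 2 or lowest in control 3 low. The share lowest in mutant 2, at 35.2%, was not low. Mutant 1 was the highest library for 64.1% of all tested genes and 19.4% of the barrier genes. Control 2 was the lowest for 47.1% of all tested genes and 5.56% of the barrier genes. These counts are of FPKM as deposited, describe 6 libraries and were not tested. They were not repeated after median-of-ratios scaling, which divides each library by the median of its gene ratios. Its factors were 1.19 for mutant 1, 0.878 for control 2 and 0.916 for mutant 2, so the shares of all tested genes also carry library scale.

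**Figure D2:**
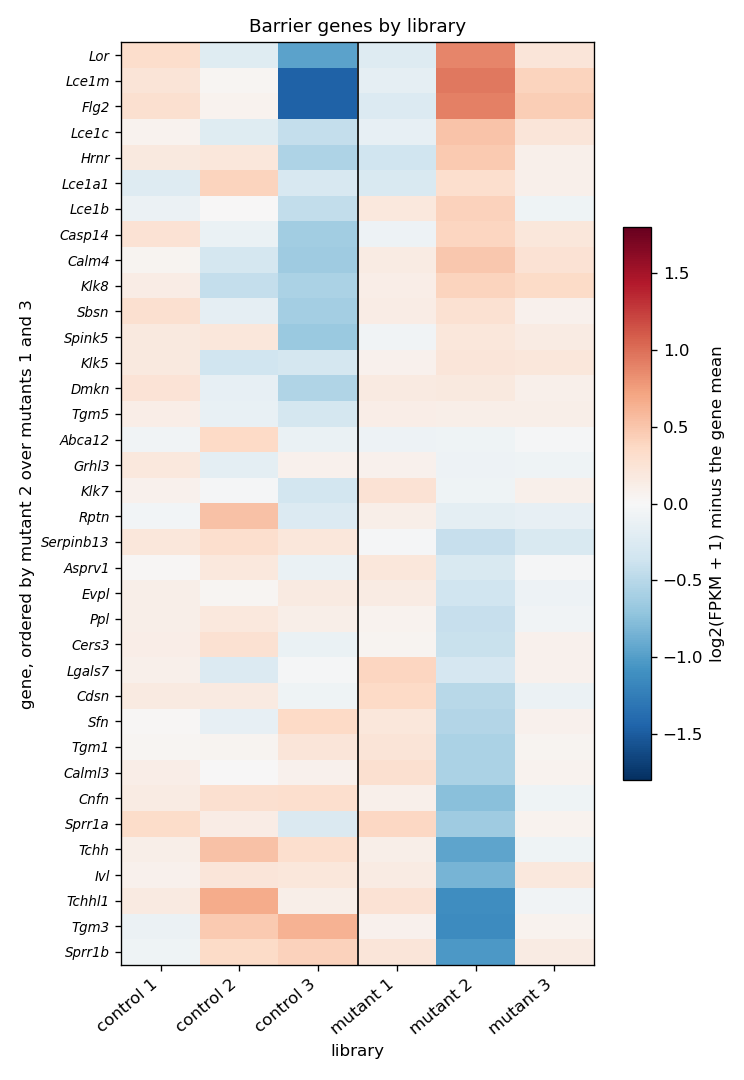
Level of the 36 tested barrier genes (rows) in the 6 libraries (columns), as log2(FPKM + 1) minus the mean of the gene, with rows ordered by the ratio of mutant 2 to the mean of mutants 1 and 3. Lor, Lce1m and Flg2 at the top are highest in mutant 2 and lowest in control 3, while Tchh, Ivl, Tchhl1, Tgm3 and Sprr1b at the bottom are lowest in mutant 2.

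Loricrin and trichohyalin show the contrast. Lor, the main protein of the epidermal envelope (chromosome 3, 92080271 to 92083142, GRCm38), stood at 10.3, 6.80 and 3.65 FPKM in controls and at 6.75, 15.7 and 9.51 in mutants, from 97 to 598 reads. Control 3 was lowest, mutant 2 highest, and the groups overlapped. Tchh (chromosome 3, 93442330 to 93449077), the trichohyalin of the inner root sheath and hair medulla, was at 1436, 1927 and 1649 FPKM in controls and at 1437, 690 and 1268 in mutants. Here mutant 2 was lowest, and mutant 1 lay at the level of control 1. Tchh was the most abundant gene of the 45 and by itself took 1.47%, 2.28% and 1.61% of the control reads and 1.21%, 0.725% and 1.25% of the mutant reads. All 45 genes together took 1.96%, 2.85% and 2.03% of the control reads and 1.63%, 1.10% and 1.70% of the mutant reads.

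The 250 bases before the RefSeq start of 6 genes are shown to set genes highest in mutant 2 (Lor, Flg2, Lce1m) beside genes lowest there (Tchh, Tchhl1, Tgm3). The 6 were picked after their values were seen. Sequences are from RefSeq, build GRCm38.p6, in the direction of the gene. Capitals mark matches, on either strand, to 5 motifs: TGANTCA for AP-1, AACCGGTT for Grainyhead-like factors, CTTTGA for TCF/LEF, the partners of beta-catenin, AGATAA for GATA factors, and TATAAA for the TATA box.
Lor: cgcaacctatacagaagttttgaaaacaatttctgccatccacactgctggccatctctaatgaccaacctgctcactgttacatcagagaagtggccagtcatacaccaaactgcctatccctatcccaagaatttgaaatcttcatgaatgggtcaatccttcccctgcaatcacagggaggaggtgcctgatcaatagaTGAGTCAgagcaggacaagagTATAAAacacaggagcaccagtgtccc
Flg2: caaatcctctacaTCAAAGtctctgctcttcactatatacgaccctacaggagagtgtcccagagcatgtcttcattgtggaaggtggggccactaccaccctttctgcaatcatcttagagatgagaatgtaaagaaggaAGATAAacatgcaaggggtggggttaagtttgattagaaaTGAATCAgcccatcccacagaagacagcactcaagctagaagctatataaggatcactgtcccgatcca
Lce1m: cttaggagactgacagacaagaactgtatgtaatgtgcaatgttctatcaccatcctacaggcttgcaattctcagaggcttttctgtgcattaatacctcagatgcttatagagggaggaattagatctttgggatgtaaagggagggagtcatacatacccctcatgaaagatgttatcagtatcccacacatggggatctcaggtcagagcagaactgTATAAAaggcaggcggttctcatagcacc
Tchh: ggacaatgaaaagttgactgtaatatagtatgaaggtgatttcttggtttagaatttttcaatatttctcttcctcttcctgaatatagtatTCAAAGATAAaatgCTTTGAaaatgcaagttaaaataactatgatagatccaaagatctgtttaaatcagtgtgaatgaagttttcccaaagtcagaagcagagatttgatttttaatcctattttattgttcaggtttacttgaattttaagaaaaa
Tchhl1: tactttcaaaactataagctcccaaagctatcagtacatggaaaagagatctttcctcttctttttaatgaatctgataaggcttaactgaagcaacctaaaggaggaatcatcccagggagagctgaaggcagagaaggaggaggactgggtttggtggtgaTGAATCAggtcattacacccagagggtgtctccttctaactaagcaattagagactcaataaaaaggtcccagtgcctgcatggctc
Tgm3: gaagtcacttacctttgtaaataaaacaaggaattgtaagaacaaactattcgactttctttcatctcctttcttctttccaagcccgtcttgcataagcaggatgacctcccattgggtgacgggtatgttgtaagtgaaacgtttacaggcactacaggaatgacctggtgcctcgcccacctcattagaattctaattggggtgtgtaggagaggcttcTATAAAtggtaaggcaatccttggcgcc
The window of Lor (chr3:92083143-92083392, minus strand) holds a match to AP-1 that begins 48 bases before the start and a TATA box at 27 bases. That of Flg2 (chr3:93197023-93197272, plus strand) holds AP-1 at 69, GATA at 109 and TCF/LEF at 237 bases, and that of Lce1m (chr3:93019062-93019311, minus strand) a TATA box at 29 bases. In the window of Tchh (chr3:93442080-93442329, plus strand) TCF/LEF matches begin at 158 and 144 bases, and the former overlaps a GATA match at 154. Tchhl1 (chr3:93468504-93468753, plus strand) has AP-1 at 87 bases and Tgm3 (chr2:130012090-130012339, plus strand) a TATA box at 28. Matches to AP-1, TCF/LEF, GATA and the TATA box each occurred in both sets, genes highest and genes lowest in mutant 2. Of the 45 genes, 38 had an entry, with 42 windows, so some genes count more than once. AP-1 matched 13 of these windows (31.0%, against 6.75% of 32851 windows of all genes) and the TATA box 11 (26.2%, against 12.4%). TCF/LEF matched 7 (16.7%, against 13.8%) and GATA 4 (9.52%, against 9.99%). The Grainyhead-like motif matched 0 of the 42 (0.116% of all windows). A match of letters is no evidence of binding.

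Among the envelope precursors, Ivl (involucrin, an early scaffold of the envelope) was at 33.2, 36.8 and 36.3 FPKM in controls and at 35.0, 17.1 and 35.8 in mutants. Apart from mutant 2 the libraries lay close together. The log2 difference was -0.34 (SE 0.26, adjusted p = 0.732), or -0.00056 without mutant 2 and -0.51 without mutant 3, and that of Lor was 0.58 (SE 0.34, adjusted p = 0.598), or 0.24 without control 3, 0.28 without mutant 2, 0.88 without control 1 and 1.25 with library sex as a covariate. Cnfn (cornifelin, an envelope component) was at 16.2, 18.0 and 18.2 FPKM in controls and at 15.6, 8.23 and 13.7 in mutants, with every mutant below every control, but by a margin small beside the spread of the mutants. Its log2 difference was -0.49 (95% interval -0.97 to -0.02, adjusted p = 0.418), or -0.24 without mutant 2.

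The fused S100-type proteins bind calcium, and Flg2, Hrnr, Tchh and Tchhl1 divided by library in the same way. Flg2 (filaggrin-2, of the upper epidermis) stood at 13.0, 11.1 and 3.21 FPKM in controls and 8.77, 20.6 and 14.8 in mutants. Hrnr (hornerin, of the same layers) was at 2.97, 3.05 and 1.40 FPKM in controls and 1.75, 3.88 and 2.75 in mutants. Both were lowest in control 3 and highest in mutant 2, and the groups overlapped (log2 differences 0.74 and 0.13, adjusted p 0.598 and 0.918). That of Flg2 was 0.20 without control 3 and 0.47 without mutant 2, and that of Hrnr ran from -0.12 to 0.34 with 1 mouse left out and was 0.62 with library sex as a covariate. Tchhl1 (trichohyalin-like 1) instead followed Tchh, at 135, 194 and 130 FPKM in controls and 146, 55.3 and 116 in mutants. Tchh and Tchhl1 had the same log2 difference to 2 decimals, -0.62 (SE 0.42 and 0.35, adjusted p = 0.671 and 0.586), and without mutant 2 they were -0.30 and -0.21. With library sex as a covariate that of Tchhl1 was -0.41. Rptn (repetin) had neither order, with 1.39 to 3.09 FPKM over the 6 libraries, highest in control 2 and lowest in control 3.

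**Figure D3:**
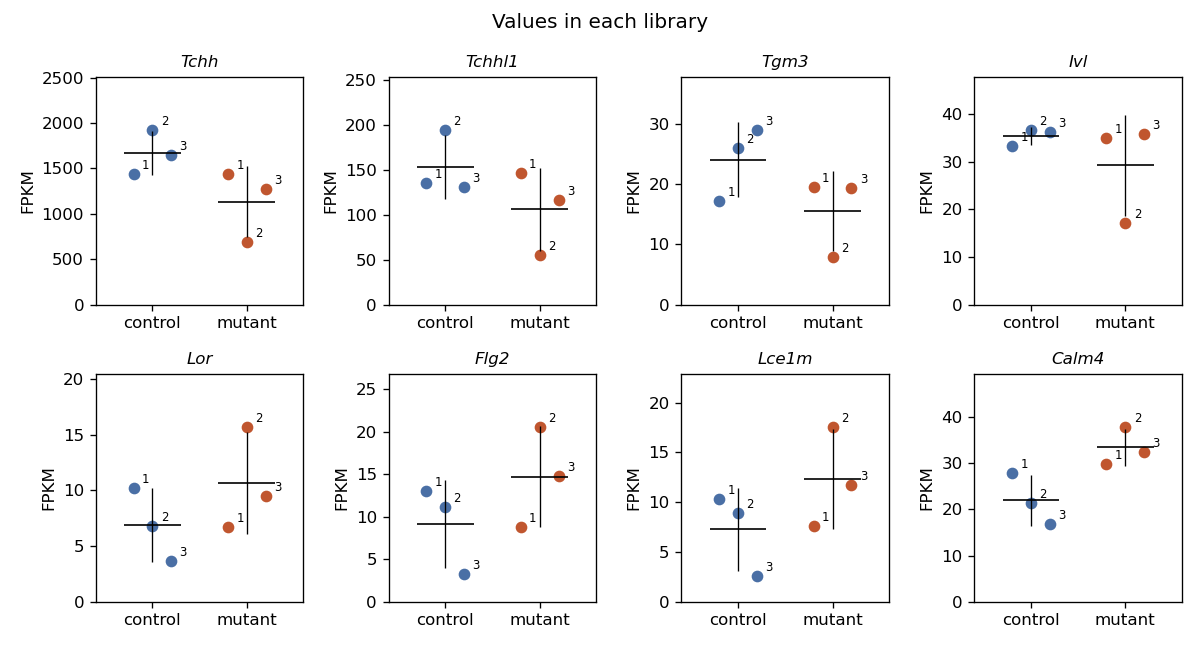
FPKM of 8 barrier genes in each library, with points numbered by mouse, a horizontal line at the group mean and a vertical line of 1 SD each way (n = 3). In the upper row (Tchh, Tchhl1, Tgm3, Ivl) mutant 2 is the lowest point, and in the lower row (Lor, Flg2, Lce1m, Calm4) mutant 2 is the highest and control 3 the lowest.

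The small proline-rich proteins are cross-bridging envelope proteins. Sprr1a was by far the most abundant of the 5, at 201, 176 and 133 FPKM in controls and 208, 103 and 168 in mutants (log2 difference -0.13, SE 0.30, adjusted p = 0.934). With 1 mouse left out this difference ran from -0.35 to 0.15, and it was 0.20 with library sex as a covariate. The related Sprr1b was at 2.51, 3.69 and 3.92 FPKM in controls and 3.30, 0.80 and 3.10 in mutants, on 14 to 54 reads. Mutant 2 was lowest in both, 0.548 and 0.25 times the mean of mutants 1 and 3. Sprr2h had 0 to 8 reads a library, Sprr3 a single read in control 3, and Sprr2d none in any library, which allows up to 3 reads in each.

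Of the late cornified envelope proteins, made in the last living layers of the epidermis, Lce1m (chromosome 3, 93017810 to 93019060) was the one well detected. It was at 10.3, 8.91 and 2.52 FPKM in controls and 7.57, 17.6 and 11.7 in mutants, on 33 to 329 reads. The order of the libraries was that of Flg2, and the log2 difference of 0.79 (SE 0.42, adjusted p = 0.555) was the highest of the 36, and was 0.26 without control 3 and 0.51 without mutant 2. With library sex as a covariate in limma, those of Flg2 and Lce1m were 1.83 and 1.85 (adjusted p = 0.0966 and 0.0851). Lce1a1 had 0.851 to 1.96 FPKM, Lce1b 0.517 to 1.74 and Lce1c 0.462 to 1.81, on 5 to 28 reads a library. The other 4, Lce1f, Lce1g, Lce1h and Lce3c, had 0 to 6 reads a library. Values of single Lce1 genes are uncertain where reads were shared between copies: 19.9%, 24.4% and 23.9% of the stretches of 50 bases in the transcripts of Lce1a1, Lce1b and Lce1c also occur in another gene, and 0% of those of Lce1m.

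Transglutaminases join the envelope proteins, and the plakins envoplakin and periplakin give them a first frame. Tgm3, the enzyme of the hair follicle and of the late epidermis (chromosome 2, 130012349 to 130050399), was at 17.2, 26.1 and 29.1 FPKM in controls and 19.5, 7.85 and 19.3 in mutants. Mutant 2 was lowest at 0.404 times the mean of the other mutants, control 1 lay below mutants 1 and 3, and the log2 difference was -0.67 (SE 0.32, adjusted p = 0.496), or -0.27 without mutant 2. Tgm1, the main membrane-bound transglutaminase of the epidermis, was at 25.2, 25.5 and 29.0 FPKM in controls and 29.0, 16.2 and 25.5 in mutants (log2 difference -0.20, adjusted p = 0.824). Ppl was at 56.1, 59.6 and 55.7 FPKM in controls and 54.4, 38.7 and 49.7 in mutants, and Evpl at 31.6, 30.2 and 32.9 and at 32.7, 22.8 and 27.5. The groups of Ppl did not overlap, though mutant 1 and control 3 nearly met (log2 difference -0.27, SE 0.18, adjusted p = 0.671, or -0.13 without mutant 2), and those of Evpl did. Tgm5 was narrow in the mutants, at 4.61 to 4.68 FPKM, against 3.17 to 4.69 in the controls.

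In the group of corneodesmosome proteins, proteases and inhibitors, the kallikrein Klk7, which cuts corneodesmosomes, was at 55.3, 51.3 and 41.4 FPKM in controls and 62.5, 49.5 and 55.6 in mutants. Cdsn (corneodesmosin) was at 38.5, 38.6 and 32.5 FPKM in controls and 44.5, 24.1 and 32.0 in mutants, and the filaggrin-processing protease Asprv1 at 45.4, 51.4 and 41.1 and at 51.9, 36.7 and 44.1. All 3 had overlapping groups and adjusted p from 0.815 to 0.957. Spink5, the inhibitor of these kallikreins, was at 18.6, 18.9 and 9.84 FPKM in controls and 15.5, 18.9 and 18.1 in mutants, with control 3 alone low. The serpin Serpinb13 had the smallest p of the 36: it was at 3.80, 4.12 and 3.79 FPKM in controls and 3.08, 2.13 and 2.43 in mutants, on 73 to 105 reads. Every mutant was below every control, and the log2 difference was -0.48 (95% interval -0.77 to -0.18, adjusted p = 0.185). Klk8, a protease of the upper epidermis, had 1.11 to 2.44 FPKM in controls and 2.40 to 3.12 in mutants (log2 difference 0.57, SE 0.19, adjusted p = 0.265), on 22 to 88 reads. Klk5 and the epidermal caspase Casp14 ran from 4.17 to 6.73 and from 1.72 to 4.50 FPKM.

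Of the barrier lipid genes, Cers3, the ceramide synthase for very long acyl chains, was at 14.7, 16.4 and 12.3 FPKM in controls and 14.0, 9.93 and 14.2 in mutants. The lipid transporter gene Abca12 was at 6.53, 9.14 and 6.25 FPKM in controls and 6.39, 6.46 and 6.78 in mutants. Both had overlapping groups, with log2 differences of -0.18 (adjusted p = 0.792) and -0.12 (adjusted p = 0.854). The epidermal lipoxygenase genes Alox12b and Aloxe3 fell short of a mean of 1 FPKM, with 0.523 to 1.38 and 0.844 to 1.20 FPKM on 16 to 69 reads.

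Among the secreted, calcium-binding and regulatory proteins the most abundant were Sfn and Lgals7. Sfn (stratifin, a 14-3-3 protein of epithelia) was at 246, 219 and 311 FPKM in controls and 279, 168 and 254 in mutants, and Lgals7 (galectin-7) at 238, 188 and 220 and at 293, 181 and 236. Their group means differed by less than the spread between mice (log2 differences -0.16 and 0.11, adjusted p 0.906 and 0.933). Calml3, a calmodulin-like protein, was at 71.5, 65.9 and 69.4 FPKM in controls and 80.0, 43.7 and 68.8 in mutants, with mutant 2 low. Calm4, another calmodulin-like gene on chromosome 13, had a different order, at 27.9, 21.4 and 16.8 FPKM in controls and 30.0, 38.0 and 32.5 in mutants. In FPKM as deposited, Calm4 was the single tested barrier gene with every mutant above every control, where 13% of all tested genes had this order. Cnfn, Ppl and Serpinb13 were the 3 with the reverse order, seen in 2.65%. These orders were not counted after median-of-ratios scaling, whose factors ran from 0.878 for control 2 to 1.19 for mutant 1. The log2 difference of Calm4 was 0.60 (95% interval 0.16 to 1.05, adjusted p = 0.273), and 0.95 with library sex as a covariate. Dmkn (dermokine) and Sbsn (suprabasin), secreted by suprabasal cells, were lowest in control 3, at 38.3 and 26.2 FPKM, and reached 66.9 and 49.5 in control 1. The mutants lay close together at 60.4 to 64.1 for Dmkn and 42.8 to 49.4 for Sbsn. Grhl3, a transcription factor of barrier formation, was steady at 5.69 to 7.63 FPKM. Part of the transcripts of Sfn (15.0% of stretches of 50 bases), Sbsn (6.96%) and Calm4 (4.72%) occur in another gene.

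Both orders of libraries were also found among markers of epidermis, follicle and sebaceous gland. Among the keratins of suprabasal epidermis, Krt10 was at 62.6, 37.6 and 23.6 FPKM in controls and 41.1, 86.4 and 54.3 in mutants, and Krt1 and Krt77 were likewise lowest in control 3 and highest in mutant 2. These were 3 of the 11 tested suprabasal markers. The other 8, the keratin Krt80 and the desmosome and junction genes Dsg1a, Dsc1, Dsp, Pkp1, Pkp3, Perp and Jup, were lowest in mutant 2, like the inner root sheath and hair keratins. Of the 12 basal markers, 1 was highest and 3 were lowest in mutant 2. Of the 7 tested outer root sheath markers, 1 was highest and 3 were lowest there, and of the 9 sebaceous gland markers 4 and 3. The keratin Krt79, listed here with the outer root sheath markers, and the sebaceous Awat1, Awat2 and Cidea were each highest in mutant 2 and lowest in control 3. The inner root sheath keratin Krt71 was at 1627, 1623 and 1567 FPKM in controls and 1823, 896 and 1527 in mutants. All 9 inner root sheath and companion layer markers and all 13 hair keratins were lowest in mutant 2. The basal keratin Krt5 varied less than Krt10 and Krt71, at 254, 196 and 216 FPKM in controls and 267, 215 and 243 in mutants. The inner root sheath, companion layer and hair lists held 22 markers. None of these 22 markers and none of the 11 tested suprabasal or 12 basal markers was called. The same held for the 7 tested outer root sheath and 9 sebaceous gland markers. The part these cell types have in the values of the barrier genes was not tested.

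Levels were also set against Krt10, Krt71 and Krt5. These keratins were picked after their values were seen, Krt10 and Krt71 for their opposite levels in mutant 2, and the gene groups were formed by that same library, so which keratin fits a group better follows from the choice and is no finding. The ratio of the highest to the lowest library was 4.32 for Lor, and 1.18 for Lor over Krt10, which was 0.164, 0.181 and 0.154 in controls and 0.164, 0.182 and 0.175 in mutants. For Lce1c it went from 3.92 to 1.42 and for Casp14 from 2.61 to 1.46. Over the 11 genes highest in mutant 2 the median went from 2.80 for FPKM to 1.91 over Krt10. Klk5 and Spink5 of these widened, from 1.61 to 2.35 and from 1.92 to 2.29. Over the 17 lowest in mutant 2 the median went from 1.85 to 1.46 over Krt71, with 1.20 for Tgm1, 1.23 for Ivl and 1.20 for Calml3. Lgals7 and Asprv1 of these widened, from 1.62 to 1.74 and from 1.41 to 1.56. The 8 others had a median of 1.63 for FPKM and 1.79 over Krt5. Over Krt5, Klk7 narrowed from 1.51 to 1.37 and Grhl3 from 1.34 to 1.27, and Dmkn and Tgm5 narrowed slightly. Abca12 widened from 1.46 to 1.95 and Lce1a1 from 2.30 to 3.08, and Rptn and Sbsn widened slightly. Tchh over Krt71 was 0.883, 1.19 and 1.05 in controls and 0.788, 0.770 and 0.831 in mutants. Every mutant was below every control in this ratio for Tchh, Tchhl1 and Cnfn (3 of 36, against 0.199% of all tested genes) and above for Klk7 and Lgals7 (2 of 36, against 32.9%). Genes that share a library share its depth and its tissue, so these ratios are descriptions and carry no test.

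**Figure D4:**
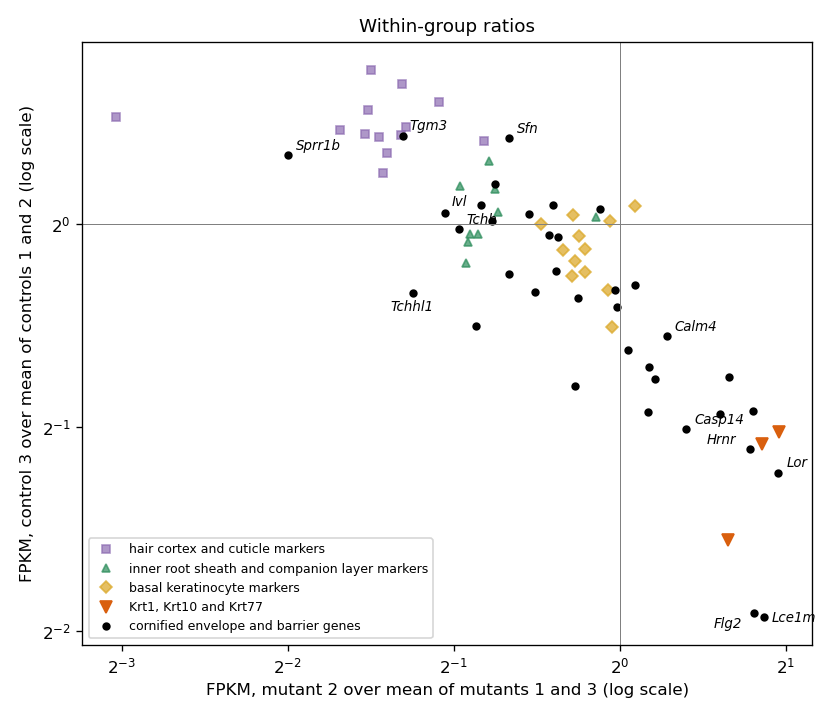
Each point is a gene, with FPKM in mutant 2 over the mean of mutants 1 and 3 on the x axis and FPKM in control 3 over the mean of controls 1 and 2 on the y axis, both on log scales. Barrier genes (black) range from the side of the sheath and hair keratins, where Tchh and Tgm3 lie at 0.510 and 0.404 on the x axis, to that of Krt1, Krt10 and Krt77, where Lor lies at 1.94 on the x axis and 0.427 on the y axis.

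The wider set of barrier genes, 54 others of which 31 were tested, gave no call either (0 higher and 0 lower, with 10 above and 21 below 0, median log2 difference -0.12, adjusted p from 0.319 to 0.982). The most abundant were Crnn (cornulin), at 121, 162 and 120 FPKM in controls and 140, 64.1 and 125 in mutants, Padi3, a peptidylarginine deiminase that modifies trichohyalin, at 85.2, 93.7 and 110 and at 102, 49.1 and 87.1, and Cldn1, a tight junction protein, at 82.2, 86.0 and 69.9 and at 84.5, 58.5 and 76.5. Mutant 2 was the lowest library for all 3 and for 23 of the 31. Only Krtdap, Kprp and Lce1a2 were highest in mutant 2. Krtdap (keratinocyte differentiation-associated protein, named here after its values were seen) was at 64.5, 37.2 and 15.6 FPKM in controls and 50.9, 104 and 81.0 in mutants, again lowest in control 3 (log2 difference 1.15, SE 0.45, adjusted p = 0.369).

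By position, 21 of the 46 genes lie on chromosome 3 between 92080271 and 93471980 (GRCm38), a span of 1392 kb known as the epidermal differentiation complex. Genes there did not all share an order of libraries. Flg2, Hrnr, Lor and Lce1m were highest in mutant 2, while Tchh, Tchhl1, Ivl, Sprr1a and Sprr1b of the same interval were lowest there. The kallikrein genes Klk5, Klk7 and Klk8 lie together on chromosome 7, and their highest libraries were mutant 2, mutant 1 and mutant 2.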

How the data were processed

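RNA from ventral dermis of 3 control and 3 mutant mice was sequenced from stranded TruSeq libraries, per the labels' protocols. The submitters' processing notes list mm10 as the build, with GSNAP and HTSeq, without role or version. The authors deposited 1 FPKM value per gene and library. The lengths, depths and strand option behind it were not given in the sources used here.

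Values were compared as log2(FPKM + 1), a scale that understates the change of low genes, over the 12560 genes that averaged 1 FPKM or more. The test was limma 3.58.1 (R 4.3.3) with an intensity trend, two-sided, with no covariate, Benjamini-Hochberg adjustment over all 12560 genes and a threshold of 0.05. It was tested on simulated data that had the same noise for every gene and no differences of sex or library scale. Those simulated data say nothing of such differences here. P-values rest on the spread between these libraries, which were taken here as separate mice. Mutant 2 had 47.6 FPKM of summed Y-linked RNA and 6.47 FPKM of Xist. The sex covariate grouped it with the other libraries that expressed Y-linked genes, and whether it came from 1 mouse was not tested. Whole reads were recovered from the FPKM steps (23412 of 23412 genes, relative tolerance 3e-09, taking the smallest whole solution; genes at 0 or seen in 1 library could not be checked) and served for depth and an alternative. The counting error of a read number does not include the spread between mice. Locations are from GENCODE M21 (GRCm38), matched by symbol for 46 of 46 genes.

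The genes and lists were chosen with earlier results of these data known. The rule for genes given in full was, per role, the 4 with the highest mean FPKM, plus any called gene and any whose groups did not overlap, and per other list the 3 most abundant. Same-numbered controls and mutants did not deviate together (correlations 0.0016, 0.037 and -0.082), so the numbers were not taken as pairs.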

Additional observations from a re-analysis of the deposited data

How the results depend on the processing

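With every alternative but 1, 0 barrier genes were called: median-of-ratios, quantile, basal and suprabasal keratinocyte scaling, pseudocounts of 0.1 and 5, no filter, a mean of at least 5 FPKM (26 genes left), limma-voom on recovered reads, library sex as a covariate and each mouse left out. The lowest adjusted p among them was 0.0585, for Serpinb13 with limma-voom. The exception was rescaling to the inner root sheath markers, chosen, like the suprabasal scaling, after seeing the data: 7 genes were called higher (Lor, Flg2, Lce1m, Klk8, Sbsn, Dmkn and Calm4) and the median of the barrier genes was 0.23. That scaling moved the median of all tested genes from 0.09 to 0.35 and called 14.1% of them, so the 7 of 36 are to be read against that share. The median of the barrier genes was -0.21 with limma-voom, where that of all genes was -0.04. A covariate for library sex, with control 3 then the sole control to express Y-linked genes, gave 0.13. Quantile scaling moved the median of all genes to -0.03. Leaving out 1 mouse at a time gave medians from -0.11 to 0.05 and 0 calls each time. The sign of 8 of 34 genes changed without mutant 2 and of 12 of 36 under sheath scaling. With the replicate number as a block, 0 genes were called and the median stayed at -0.06. The causes of these shifts were not tested. Depth limits Sprr1b, Lce1a1, Lce1b and Lce1c, which rest on 5 to 54 reads a library.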
